A study of Mus musculus with 9 samples.

Results

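The let-7 miRNAs are conserved from worms to mammals, and the 10 mouse members measured here were mmu-let-7a-5p to mmu-let-7g-5p, mmu-let-7i-5p, mmu-miR-98-5p and mmu-let-7k, written below without the species prefix. They were taken as the array entries whose systematic name equals one of these names, which gave 10 of the 1881 mouse miRNAs on the array. Lung RNA of 9 mice had been read on single-colour (Cy3) Agilent miRNA arrays, 3 mice in each group. Control mice have no treatment named in the labels, model mice were given D-galactose and sodium nitrite with 42 days in the label, a treatment used to imitate ageing, and codonopsis mice were given the plant Codonopsis pilosula at 15 g per kg with 30 days in the label. Whether the ageing treatment was also given to the codonopsis mice is not stated in their labels, while the series as a whole speaks of an intervention in aged animals. By the labels 3 mice were male, namely control 1, codonopsis 1 and codonopsis 2, and 6 were female. Strain and age are not given in the sources used here. The mature let-7 strand guides repression of mRNAs that pair with its seed, among them growth-promoting genes such as Ras, Myc and Hmga2 transcripts. The protein LIN28 blocks maturation of let-7 precursors in early development, and mature let-7 miRNAs are abundant in differentiated tissue, lung included.

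The sequences are shown because the members differ by few bases and the arrays have to tell them apart. All 10 were found in RefSeq (build GRCm38.p6) and are written with the seed, bases 2 to 8, in capitals.
mmu-let-7a-5p: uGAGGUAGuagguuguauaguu
mmu-let-7b-5p: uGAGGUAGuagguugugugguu
mmu-let-7c-5p: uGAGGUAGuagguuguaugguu
mmu-let-7d-5p: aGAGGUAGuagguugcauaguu
mmu-let-7e-5p: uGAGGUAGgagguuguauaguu
mmu-let-7f-5p: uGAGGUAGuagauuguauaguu
mmu-let-7g-5p: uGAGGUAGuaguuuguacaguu
mmu-let-7i-5p: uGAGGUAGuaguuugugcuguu
mmu-miR-98-5p: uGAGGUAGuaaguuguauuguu
mmu-let-7k: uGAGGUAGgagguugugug

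All 10 members carried the same seed, GAGGUAG. Positions are counted from 1 at the 5′ end, with the base of let-7a-5p first. Relative to let-7a-5p, a single base differed in let-7c-5p (A19G), let-7e-5p (U9G) and let-7f-5p (G12A). A pair of bases differed in let-7b-5p (A17G and A19G), let-7d-5p (U1A and U16C), let-7g-5p (G12U and U18C) and miR-98-5p (G11A and A19U). The most diverged of the 22-base members was let-7i-5p, with G12U, A17G, U18C and A19U. Over its 19 bases let-7k differed at U9G, A17G and A19G. These changes moved GC content from 31.8% in let-7f-5p and miR-98-5p, through 36.4% in let-7a-5p and let-7g-5p and 40.9% in let-7c-5p, let-7d-5p, let-7e-5p and let-7i-5p, to 45.5% in let-7b-5p and 52.6% in let-7k.

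In that build 13 hairpins listed by RefSeq hold these mature sequences. One group on chromosome 13, minus strand, holds let-7d-5p (chr13:48536078-48536099), let-7f-5p from Mirlet7f-1 (chr13:48537889-48537910) and let-7a-5p from Mirlet7a-1 (chr13:48538239-48538260), with the hairpins Mirlet7f-1 and Mirlet7a-1 262 bases apart. The second source of let-7a-5p, Mirlet7a-2, lies on the plus strand of chromosome 9 (mature sequence at chr9:41536732-41536753), 5212 bases from Mir100. On chromosome 15, plus strand, let-7c-5p from Mirlet7c-2 (chr15:85706616-85706637) and let-7b-5p (chr15:85707325-85707346) have hairpins 622 bases apart. The second source of let-7f-5p (chrX:151912353-151912374) and miR-98-5p (chrX:151913229-151913250) are neighbours on the plus strand of X, 786 bases apart. Mirlet7c-1 (let-7c-5p at chr16:77599672-77599693, plus strand) lies 657 bases from Mir99a, and Mirlet7e (let-7e-5p at chr17:17830366-17830387, plus strand) lies 368 bases from Mir125a. No other listed hairpin of that strand lies within 10000 bases of let-7g-5p (chr9:106178846-106178867, plus strand), let-7i-5p (chr10:122985698-122985719, minus strand) or let-7k (chr5:147283257-147283275, minus strand). The array reads mature strands, so copies of let-7a-5p, let-7c-5p or let-7f-5p from different hairpins share 1 value.

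The arrays detected 375 to 484 miRNAs each, and their 75th percentile of signal ran from 244.54 to 538.24. Levels below are log2 of the processed signal after division by that percentile, so 1 unit is a doubling. Each member has its own probes, and levels of different members cannot be set against each other. The control arrays had slide 2 to themselves, with model and codonopsis on slide 1, so in any contrast with control the slide and the treatment cannot be told apart. Control 1 differed most from the set, with a median correlation to the others of 0.911 where the remaining arrays had 0.974 to 0.987, and with the lowest 75th percentile. The lung labels were checked against marker miRNAs. The markers of endothelium, epithelium, multiciliated cells, smooth muscle, erythroid cells and leukocytes were detected on all 9 arrays, and the brain miRNAs miR-124-3p and miR-9-5p were detected on none. The liver miRNA miR-122-5p was detected on 3 arrays, 1 control and 2 codonopsis, and was not tested. The striated muscle markers miR-1a-3p, miR-133a-3p and miR-133b-3p were also detected on all 9 arrays, miR-206-3p on 7 and miR-208a-3p on 1. In these tissue samples, fewer cells of a type and less RNA per cell cannot be told apart.

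Each of the 10 members was detected on all 9 arrays and passed the filter on dim miRNAs, which required detection on all 3 arrays of at least 1 group and left 404 miRNAs. None of their spots was saturated. The members together held 11.56% of the summed miRNA signal on control 1 and 15.81% to 18.78% on the other 8 arrays. Averaged over the 9 brighter members (all but let-7k), control lungs had a level of 2.85 ± 0.16, model lungs 3.14 ± 0.029 and codonopsis lungs 2.93 ± 0.093 (SD, n = 3 each). By group means, 9 of 10 members were highest in model lungs, where 165 of the 404 tested miRNAs were. In control lungs 8 of 10 members were lowest, as were 138 of the 404. The 3 model arrays lay close together, whereas the control spread came mostly from control 1. The moderated F test of limma over the 3 groups passed for none of the 10 members after Benjamini-Hochberg adjustment over all 404 (smallest adjusted p = 0.297, let-7b-5p), and for 0% of all tested miRNAs. At an unadjusted p under 0.05, 1 member (let-7b-5p, limma unadjusted p = 0.0261) passed it, and so did 13.4% of all tested miRNAs.

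**Figure D1:**
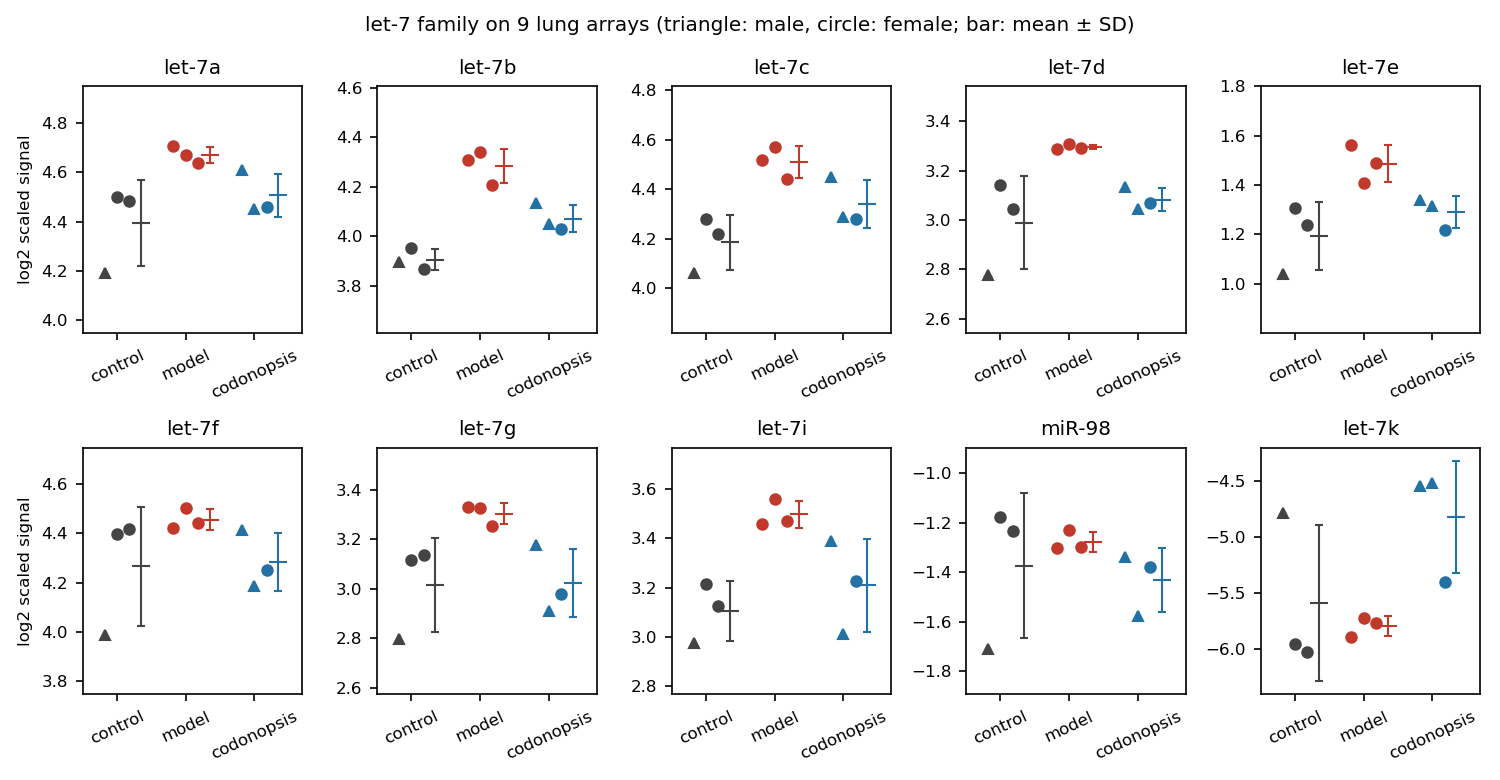
Log2 scaled signal of each let-7 member on 9 lung arrays, 1 panel a member. Triangles are male and circles female mice, and bars give mean ± SD of 3 arrays; the vertical axis of let-7k spans a wider range than the others. The model arrays sit above the control arrays for 8 members, and control 1, the male control, is the lowest array for 8 of the 9 brighter members. For let-7k the 3 highest arrays after scaling are the 3 from male mice.

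The first comparison asks what the D-galactose and sodium nitrite treatment was accompanied by. In model lungs 9 of 10 let-7 members had a higher mean than in control lungs (54.5% of all tested miRNAs did), and for 8 of 10 every model array lay above every control array (14.4% of all tested miRNAs). No member passed the test after adjustment, nor did any other miRNA (0% of 404), while 5 of 10 members were higher at an unadjusted p under 0.05 (8.66% of all tested). The median member differed by 0.29 on the log2 scale and the median tested miRNA by 0.04.

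mmu-let-7b-5p, which comes from the chromosome 15 pair, stood at 3.89, 3.95 and 3.87 on controls 1 to 3, at 4.31, 4.34 and 4.21 on models 1 to 3, and at 4.13, 4.05 and 4.03 on codonopsis 1 to 3. The 3 groups did not overlap, and control 1 was not apart for this member. The model mean was 0.38 higher than control (SE 0.11, fold 1.302, limma unadjusted p = 0.00889, adjusted p = 0.332). Its signal before scaling was 3638 on control 1 and 6343 to 8547 on the other arrays. For mmu-let-7i-5p the values were 2.97, 3.21 and 3.13 in control, 3.46, 3.56 and 3.47 in model and 3.39, 3.01 and 3.23 in codonopsis lungs. Model arrays were all highest, and codonopsis arrays spanned most of the gap to control. The difference from control was 0.39 (SE 0.14, limma adjusted p = 0.356).

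mmu-let-7a-5p, the reference sequence of the family, was at 4.19, 4.50 and 4.49 in control, 4.70, 4.67 and 4.64 in model and 4.61, 4.45 and 4.46 in codonopsis lungs. The model exceeded control by 0.28 (SE 0.13, 95% interval −0.027 to 0.58, limma adjusted p = 0.438), and the difference without control 1 was 0.18. let-7d-5p, whose hairpin lies 2065 bases from Mirlet7a-1, was at 2.78, 3.14 and 3.05 in control, 3.29, 3.31 and 3.29 in model and 3.13, 3.04 and 3.07 in codonopsis lungs. It was the tightest member within the model group (SD 0.0091) and differed from control by 0.31 (SE 0.13, limma adjusted p = 0.415).

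The remaining hairpin on chromosome 13 is 1 of the 2 sources of let-7f-5p. Its levels were 3.99, 4.39 and 4.41 in control, 4.42, 4.50 and 4.44 in model and 4.41, 4.18 and 4.25 in codonopsis lungs. Controls 2 and 3 nearly reached the model arrays, and the difference of 0.19 (SE 0.15, limma adjusted p = 0.577) was 0.049 without control 1. miR-98-5p, the neighbour of the other source on X, stood at −1.71, −1.18 and −1.23 in control, −1.30, −1.23 and −1.30 in model and −1.34, −1.58 and −1.38 in codonopsis lungs. It overlapped between groups (model minus control 0.096, SE 0.17, limma adjusted p = 0.841) and its difference was −0.074 without control 1. The interval of the miR-98-5p difference, −0.30 to 0.49, holds the values of all the other brighter members.

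let-7c-5p, let-7e-5p and let-7g-5p followed the majority, with model means of 4.51 ± 0.064, 1.49 ± 0.076 and 3.30 ± 0.044 (SD, n = 3 each) against control means of 4.19 ± 0.11, 1.19 ± 0.14 and 3.02 ± 0.19. Their differences were 0.32, 0.29 and 0.29 (limma adjusted p = 0.373, 0.416 and 0.441), and none of them overlapped between these groups. Leaving out control 1, the median over the 10 members was 0.20 in place of 0.29.

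**Figure D2:**
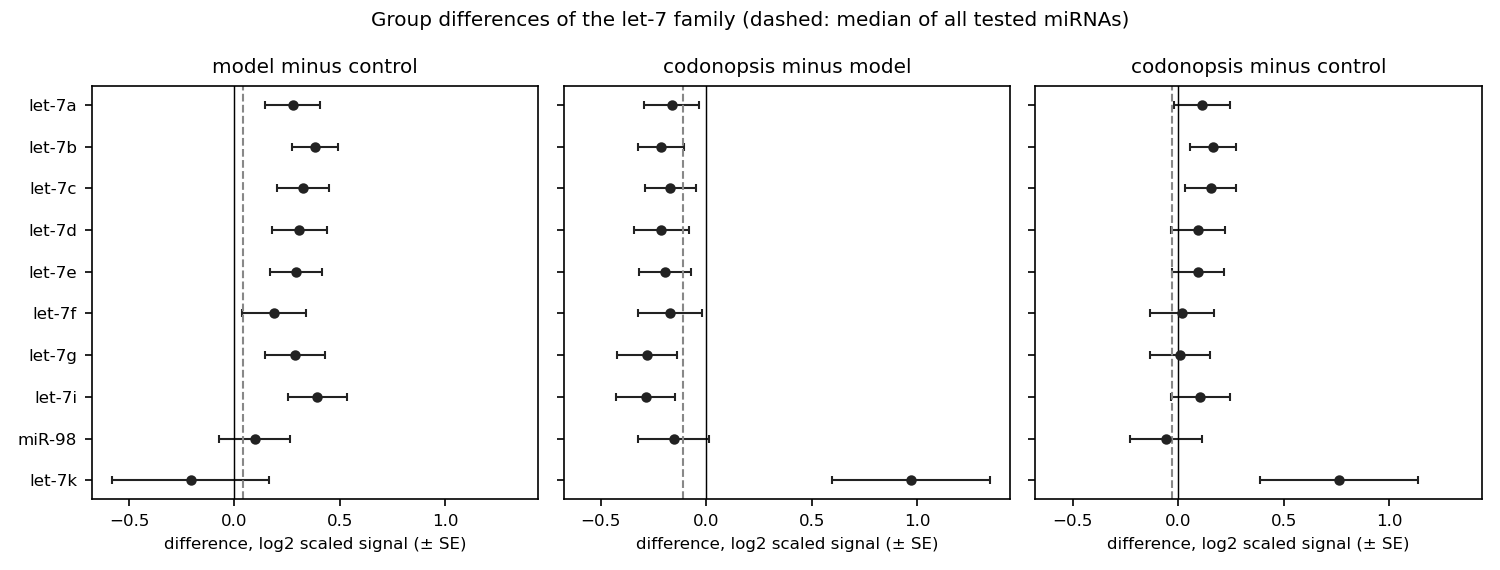
Differences of group means on the log2 scale for the 10 let-7 members in 3 comparisons. Points are fitted differences, bars their SE, and the dashed line the median of all 404 tested miRNAs (0.04, −0.11 and −0.03 from left to right). 9 members lie above 0 in model minus control and below 0 in codonopsis minus model, with let-7k on the opposite side in both.

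The second comparison sets codonopsis against model lungs, which share a slide. It also shares the model arrays with the first comparison, so the values of both are given side by side and no relation between them is drawn. The 9 brighter members were lower in codonopsis lungs, by 0.15 to 0.29, with a median over all 10 members of −0.18 against −0.11 over all tested miRNAs. For 8 members every codonopsis array lay below every model array, which was so for 22.3% of all tested miRNAs, and none passed the limma test after adjustment (0% of all tested). None of the 9 was lower at an unadjusted p under 0.05, which 2.97% of all tested miRNAs were, and lower means were found for 60.4% of all tested miRNAs.

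let-7i-5p and let-7g-5p gave the widest gaps among the 9, at −0.29 (SE 0.14, limma adjusted p = 0.471) and −0.28 (SE 0.14, limma adjusted p = 0.473). For let-7g-5p the arrays read 3.33, 3.33 and 3.25 in model and 3.18, 2.91 and 2.98 in codonopsis lungs. Codonopsis 1 was the highest codonopsis array for all 9 brighter members. let-7b-5p and let-7d-5p differed by −0.21 each, let-7e-5p by −0.20, let-7f-5p and let-7c-5p by −0.17, let-7a-5p by −0.16 and miR-98-5p by −0.15. Only let-7c-5p overlapped among them, with codonopsis 1 at 4.45 against 4.44 for model 3.

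The direction of this comparison depended on the scaling. The 75th percentile was taken over the 289 miRNAs detected on all 9 arrays. With that set redefined without control 1 (325 miRNAs) the family median became 0.026 with 6 of 10 members higher, and without control 3 (303 miRNAs) it was −0.0075 with 5 of 10 higher, both chosen after seeing the data. The median of all tested miRNAs moved with it, to 0.10 and 0.067. With the brightest probe of each miRNA the family median was −0.023, after quantile normalization −0.025 and in the deposited table −0.024. With the geometric mean over the 289 miRNAs it was −0.16.

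In the third comparison codonopsis lungs were set against control lungs. The differences were between −0.059 (miR-98-5p) and 0.17 (let-7b-5p) for the 9 brighter members, with a median over 10 members of 0.10 against −0.03 over all tested miRNAs. Only let-7b-5p and let-7c-5p had every codonopsis array above every control array (5.69% of all tested miRNAs), at 0.17 (SE 0.11, limma adjusted p = 0.606) and 0.15 (SE 0.12, limma adjusted p = 0.657). No member passed the limma test after adjustment, where 0.99% of all tested miRNAs did. At an unadjusted p under 0.05 no member passed either, while 7.18% of all tested miRNAs were higher and 7.18% lower. let-7f-5p and let-7g-5p differed least, at 0.018 (95% interval −0.34 to 0.37) and 0.0067 (95% interval −0.32 to 0.34). Without control 1 the family median was 0.016, and let-7d-5p, let-7f-5p and let-7g-5p then had a lower mean in codonopsis than in control lungs.

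**Figure D3:**
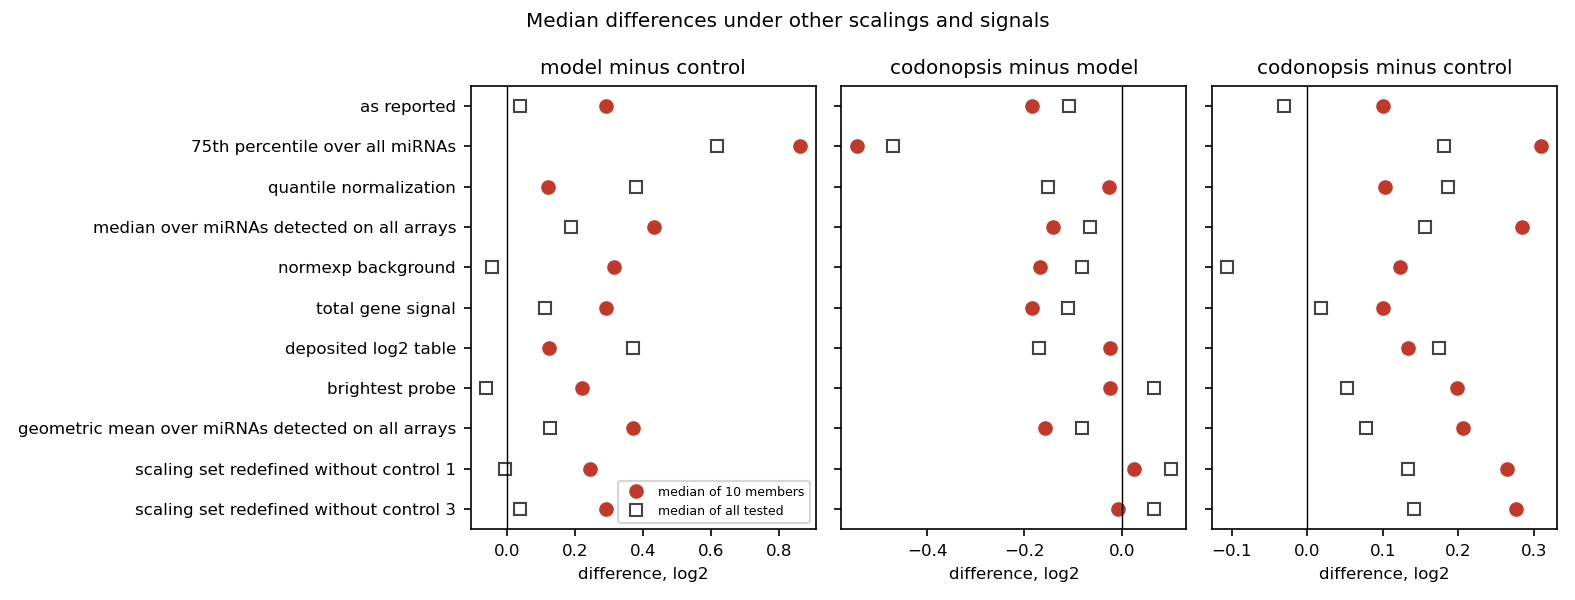
Median difference of the 10 let-7 members (filled circles) and of all tested miRNAs (open squares) under other scalings and signals, on the log2 scale. In model minus control the family median stays above 0 in each row, from 0.12 to 0.86, but lies below the median of all tested miRNAs after quantile normalization and in the deposited table. In codonopsis minus model it runs from −0.54 to 0.026.

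mmu-let-7k, a shorter entry whose hairpin lies away from the others on chromosome 5, did not follow the rest. Its levels were −4.78, −5.95 and −6.03 on controls 1 to 3, −5.90, −5.72 and −5.77 on models 1 to 3, and −4.55, −4.52 and −5.40 on codonopsis 1 to 3. The codonopsis arrays all exceeded the model arrays (so did 14.9% of all tested miRNAs), by 0.97 in the mean (SE 0.37, limma unadjusted p = 0.0325, adjusted p = 0.413). At that unadjusted level 7.67% of all tested miRNAs were higher. Against control the difference was 0.76 (SE 0.37, limma adjusted p = 0.401), which became 1.17 and passed without control 1 (limma adjusted p = 0.0395), as 11.4% of all tested miRNAs then did (46 of 404). With limma's array weights, which gave control 1 a weight of 0.092, let-7k passed against model (1.03, limma adjusted p = 0.0225) and against control (1.19, limma adjusted p = 0.023), as did 9.16% of all tested miRNAs in each comparison. Over all alternatives the limma adjusted p of let-7k ran from 0.0225 to 1 against model and from 0.023 to 0.994 against control.

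After scaling, the 3 arrays from male mice held the 3 highest let-7k values, with the lowest male at −4.78 and the highest female at −5.40. Before scaling, male control 1 had a let-7k signal of 8.88, against 8.68 on female control 2 and 9.45 on female codonopsis 3. The 75th percentile that divided it was 244.54 on control 1 and 394.17 to 538.24 on the other arrays. In a limma fit with sex beside group, male minus female was 1.04 (SE 0.14, unadjusted p = 0.000124, adjusted p = 0.0503 over 404 miRNAs). No model mouse was male, and the only male control was control 1. How many of the 404 tested miRNAs split by sex in this way was not counted. In the fit with sex, codonopsis minus model was 0.28 for let-7k. Of the other members, miR-98-5p had the widest sex difference, at −0.29 (SE 0.15, limma adjusted p = 0.254). let-7k was dim, although detected on all 9 arrays. Its processed signal was 6.67 to 20.5, its repeated spots varied by a median of 32.1% (coefficient of variation), and for the other members that median was 6.90% to 9.21%. After normexp background correction with an offset of 50, codonopsis minus model was 0.075 for let-7k and codonopsis minus control 0.0092.

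Ratios between members within an array do not depend on dividing an array by a constant. Relative to the mean of the 9 brighter members on the same array, let-7i-5p was higher in model than in control lungs by 0.11 (SE 0.052) and miR-98-5p lower by 0.19 (SE 0.062), both without overlap. let-7b-5p was higher by 0.098 (SE 0.065) and let-7f-5p lower by 0.095 (SE 0.045), with overlap. The other 5 members moved by no more than 0.042 either way. Between codonopsis and model lungs these shares moved less, from −0.081 (let-7i-5p) to 0.051 (miR-98-5p), and only let-7g-5p (−0.076, SE 0.037) did not overlap.

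The order of the members in model minus control followed their GC content. let-7f-5p and miR-98-5p, at 31.8% GC, differed by 0.19 and 0.096. let-7a-5p and let-7g-5p, at 36.4%, differed by 0.28 and 0.29. The 4 members at 40.9% lay between 0.29 and 0.39, and let-7b-5p, at 45.5%, was at 0.38. Over the 9 members Pearson's r was 0.886 and Spearman's rho 0.905 between GC content and the difference, given as a description because the members share arrays and most of their sequence. Against controls 2 and 3 alone r was 0.923 (rho 0.949), with miR-98-5p at −0.074 and let-7b-5p at 0.38. Control 1 minus the mean of controls 2 and 3 ran from −0.51 in miR-98-5p and −0.42 in let-7f-5p to −0.014 in let-7b-5p (r = 0.93, rho 0.896). That difference subtracts the same 2 control arrays. An order carried by controls 2 and 3 would appear in both, so the likeness is not a separate recurrence. Codonopsis minus control, which shares the control arrays, ran from −0.059 in miR-98-5p to 0.17 in let-7b-5p (r = 0.859, rho 0.755). In codonopsis minus model the values were r = −0.37 and rho −0.527, a weaker relation of opposite sign. The members did not line up by GC there, with let-7b-5p at −0.21 and let-7g-5p, with less GC, at −0.28. With sex as a covariate the values were r = −0.816 and rho −0.791, and without codonopsis 1 r = −0.168 and rho −0.439. The sign turned after quantile normalization (r = 0.62, rho 0.553) and in the deposited table (r = 0.607, rho 0.545).

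Over the 328 tested miRNAs with a RefSeq sequence (81.2% of 404), rho with GC content was −0.212 for model minus control, 0.04 against controls 2 and 3, and 0.397 for control 1 minus controls 2 and 3. All tested miRNAs together thus did not show the order of the let-7 members in model minus control. Among the members the order in model minus control was lost under quantile normalization (r = −0.246) and in the deposited table (r = 0.047), and r was 0.815 after normexp correction. The ratio of let-7b-5p to let-7f-5p shows the pattern by array. On the log2 scale it was −0.092, −0.44 and −0.55 on controls 1 to 3, −0.11, −0.16 and −0.23 on models 1 to 3, and −0.28, −0.13 and −0.22 on codonopsis 1 to 3. Control 1 was above all model and codonopsis arrays, and controls 2 and 3 were below all of them.

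**Figure D4:**
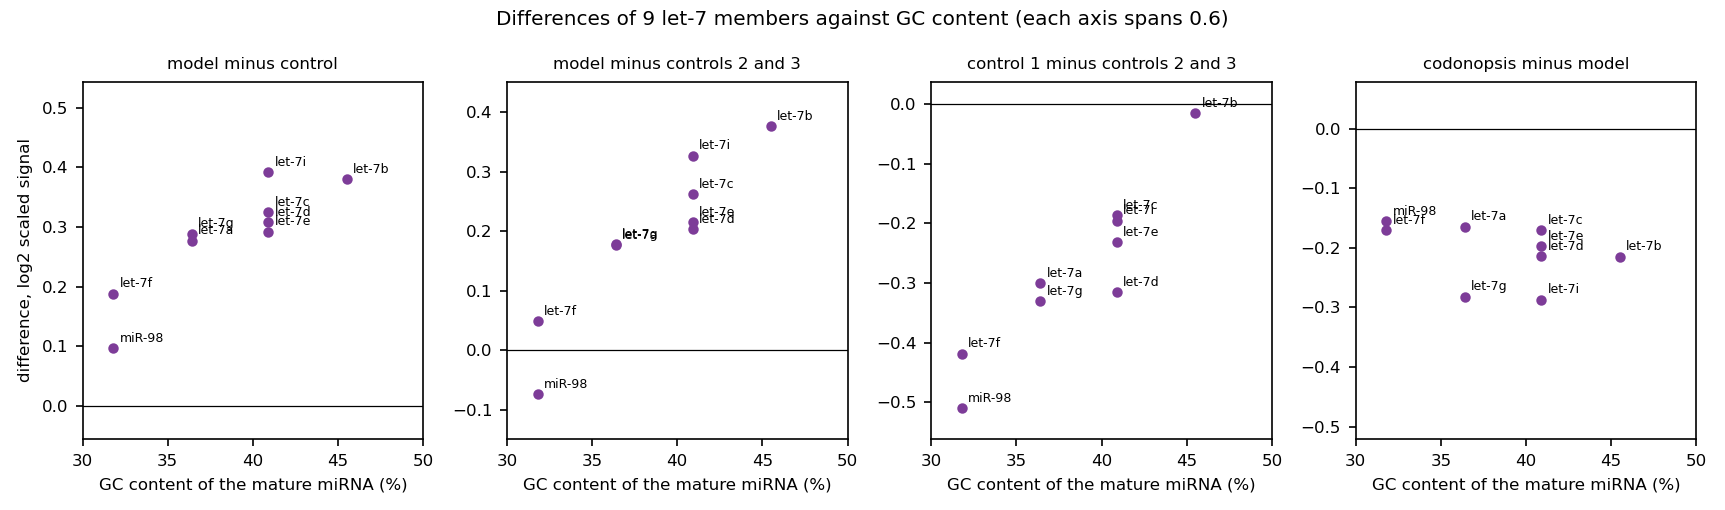
Difference on the log2 scale against GC content of the mature sequence for the 9 brighter let-7 members, in 4 comparisons; the vertical axes have the same span but different limits. Members with more GC lie higher in model minus control, in model minus controls 2 and 3 and in control 1 minus those. Controls 2 and 3 are subtracted in each of these. In codonopsis minus model the relation is weaker and opposite, and let-7b-5p, with the most GC, lies above let-7g-5p and let-7i-5p.

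Among the 9 brighter members, ratios between members that differ by 1 base varied little. The 4 such pairs had an SD of their log2 ratio over the 9 arrays of 0.05 to 0.068. The 10 pairs that differ by 2 bases had 0.042 to 0.155, and the widest of the 36 pairs, let-7b-5p with miR-98-5p, had 0.203. Pairs with the dim let-7k were left out of these counts. Over its 19 bases let-7k differs from let-7b-5p by 1 base, and the SD of that ratio was 0.668. Whether probes of 1 member also bind another was not tested. Each member had a pair of probes, and both gave the same sign for 10 of 10 members in model minus control and in codonopsis minus model. In codonopsis minus control they disagreed for let-7f-5p and let-7g-5p. Over the 9 arrays, a brighter member correlated with the mean of the other 8 from 0.713 (miR-98-5p) to 0.98 (let-7a-5p), and let-7k correlated with the mean of the 9 at −0.513, all sharing the same arrays and scaling.

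The passenger strands, the 3p arms that are usually degraded, were mostly not detected. Of 11 on the array, 4 were detected on any array and only let-7d-3p on all. Its processed signal was 24.6 on control 1, 9.95 and 7.12 on controls 2 and 3, 5.91 to 7.63 on the model arrays and 9.03 to 12.3 on the codonopsis arrays. The log2 ratio of let-7d-5p to let-7d-3p was 6.09 on control 1, 8.90 and 8.98 on controls 2 and 3, 9.10 to 9.41 on the model arrays and 8.42 to 8.63 on the codonopsis arrays. Control 1 thus had the smallest excess of the guide strand, and the codonopsis arrays all lay below the model arrays. let-7b-3p was detected only on control 1, with a signal of 25.7 against 2.54 to 4.68 elsewhere, and so was let-7f-1-3p, at 9.72 against 1.80 to 4.34. let-7e-3p was detected only on control 2. After scaling, all 9 brighter guide strands were lower on control 1 than on the mean of controls 2 and 3, with a median of −0.30. Of all 404 tested miRNAs 201 were lower, with a median of 0.0089. miR-1961, the only other array miRNA found with the let-7 seed, was detected on no array.

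miRNAs made from the same primary transcripts as some let-7 members had differences of the same sign for most strands. Of 11 strands of miR-99a, miR-99b, miR-100, miR-125a and miR-125b, 7 were tested. In model minus control 6 of 7 were higher (median 0.19), as 54.5% of all tested miRNAs were. For 2 of 7 every model array lay above every control array (14.4% of all tested). In codonopsis minus model 6 of 7 were lower (median −0.20), as 60.4% of all tested miRNAs were. None passed the limma test in any comparison. miR-99a-5p, from the transcript of Mirlet7c-1, was at 1.31 ± 0.20 in control, 1.65 ± 0.11 in model and 1.38 ± 0.017 in codonopsis lungs (SD, n = 3 each). miR-125a-5p, beside Mirlet7e, stood at −0.45 ± 0.067, −0.27 ± 0.12 and −0.38 ± 0.042. The exception in codonopsis minus model was the dim miR-99b-3p, which was higher by 0.68 (SE 0.18, limma adjusted p = 0.228). It is among those higher in model than in control lungs, but was detected on 1 control array and stood at the floor of −8 on controls 1 and 3.

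Among 386 other tested miRNAs, those with the highest Pearson correlation over 9 arrays with the mean of the 9 brighter members were miR-497a-5p (0.973), miR-195a-5p (0.968), miR-6516-5p (0.961), miR-331-3p (0.953) and miR-532-5p (0.942). Without control 1 these were 0.968, 0.931, 0.938, 0.901 and 0.875. miR-195a-5p was at 2.13 ± 0.33 in control, 2.85 ± 0.099 in model and 2.45 ± 0.20 in codonopsis lungs, and miR-497a-5p at 1.63 ± 0.21, 2.04 ± 0.093 and 1.70 ± 0.19 (SD, n = 3 each). The miR-195a-5p difference between model and control was 0.72 (SE 0.19), wider than that of any let-7 member.

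Epithelial markers of the miR-200 family had differences of the same sign as the 9 brighter let-7 members. All 5 had a higher mean in model than in control lungs (median 0.26), as 54.5% of all tested miRNAs did. All 5 had a lower one in codonopsis than in model lungs (median −0.29), as 60.4% of all tested miRNAs did. Every model array lay above every control array for 1 of 5 (14.4% of all tested), and every codonopsis array below every model array for 1 of 5 (22.3% of all tested). Their summed level was 2.96 to 3.35 in control, 3.23 to 3.52 in model and 3.07 to 3.23 in codonopsis lungs. The endothelial strands miR-126a-3p and miR-126a-5p summed to 5.18 to 5.69, 5.79 to 5.91 and 5.40 to 5.87 in the same order, but differed in opposite directions between model and control. The difference was 0.39 (SE 0.18, limma adjusted p = 0.437) for miR-126a-3p and −0.89 (SE 0.22, limma adjusted p = 0.283) for miR-126a-5p, whose model arrays all lay below control. Smooth muscle miR-143-3p and miR-145a-5p summed to 1.01 to 1.41, 0.77 to 0.98 and 0.59 to 1.20, and the 4 leukocyte markers to 1.29 to 3.33, 1.41 to 2.10 and 1.40 to 2.06. In codonopsis minus model the 4 tested striated muscle markers had a median of −1.29 and the 3 multiciliated markers −0.64. Of the striated markers 3 were lower and miR-206-3p was higher, by 0.89. The 3 lower ones were low on codonopsis 1 and 3 but at their highest on codonopsis 2 (miR-1a-3p −1.84, 2.07 and −2.14 on codonopsis 1 to 3). Summed levels of the striated and multiciliated markers ran from −0.92 to 3.16 and from 0.74 to 2.25 on codonopsis arrays. On model arrays they ran from 1.53 to 2.38 and from 1.55 to 2.57. The 4 erythroid markers had a median of 0.12 in that comparison, with sums of 4.75 to 5.62 on codonopsis and 4.62 to 5.33 on model arrays. The part of these markers in the let-7 differences was not tested.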

How the data were processed

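The scanner files hold linear processed intensity, corrected for background and spatial trends, as deposited by the authors; per the file headers they were written by Agilent Feature Extraction 11.5.1.1, while the submitters' processing notes name 10.10. The authors' deposited value table holds log2 values and was used as an alternative. Spots flagged as non-uniform or outliers (3.05%) were left out, intensity was averaged over spots, then over probes, divided by the 75th percentile of the array (taken over 289 miRNAs that all arrays detected), and log2 was taken with a floor of −8. One limma model (3.58.1, R 4.3.3) of all 9 arrays, with 6 residual degrees of freedom, gave moderated two-sided tests, adjusted by Benjamini-Hochberg over 404 miRNAs (threshold 0.05). The model was run on simulated data with independent noise and changes larger than those of the brighter let-7 members. That simulation does not cover small differences shared by members or an array that stands apart. P-values reflect the spread between arrays within a group, each from a different mouse, so mouse and array differences cannot be told apart. The 9 arrays limit the precision. Ratios among members were fitted likewise. Normexp used the median spot signal, since the files hold no mean signal. Named miRNAs are all members, the tested passenger strands, cluster partners and same-seed miRNAs, and the 5 miRNAs most like the family mean. Members and lists were chosen with earlier results of these data known. Sequences and positions come from RefSeq (GRCm38.p6).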

Additional observations from a re-analysis of the deposited data

How the results depend on the processing

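All differences here are on the log2 scale. Model minus control kept a positive family median under all alternatives run, but it lay below the median of all tested miRNAs after quantile normalization and in the deposited table. The sign of the family median in codonopsis minus model depended on the scaling set. The precision was limited by 9 arrays, a control group alone on its slide and 1 control array that stands apart, and no brighter member passed the adjusted limma test under any alternative.

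Scaling to the 75th percentile over all miRNAs gave family medians of 0.86 for model minus control, −0.54 for codonopsis minus model and 0.31 for codonopsis minus control, with let-7k at 0.36 in the first and miR-98-5p at 0.15 in the last. Quantile normalization gave 0.12 and −0.025 for the first 2 medians. It turned let-7f-5p (−0.017) and let-7k (0.38) in model minus control, let-7b-5p (0.060), let-7d-5p (0.068) and let-7e-5p (0.014) in codonopsis minus model, and let-7f-5p (−0.017), let-7g-5p (−0.039) and miR-98-5p (0.26) in codonopsis minus control. In the deposited table the first 2 medians were 0.12 and −0.024, and the turned values were let-7k (0.48) in model minus control, let-7b-5p (0.063), let-7d-5p (0.053) and let-7e-5p (0.0039) in codonopsis minus model, and miR-98-5p (0.23) in codonopsis minus control. Scaling to the median gave 0.43 for model minus control and 0.28 for codonopsis minus control, with miR-98-5p at 0.13 in the latter.

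The brightest probe gave a median of −0.023 for codonopsis minus model. It turned miR-98-5p to −0.018 in model minus control and 0.001 in codonopsis minus control, and let-7a-5p (0.013), let-7c-5p (0.008), let-7f-5p (0.0035) and miR-98-5p (0.019) in codonopsis minus model. With sex as a covariate miR-98-5p was −0.0018, 0.041 and 0.039 in the 3 comparisons and let-7k 0.14 in model minus control. With array weights 1 member, let-7k, passed in codonopsis minus model, in codonopsis minus control and in the F test (limma adjusted p = 0.0243), where 9.16%, 9.16% and 9.41% of all tested miRNAs passed. In that fit model minus control was −0.065 for miR-98-5p and 0.16 for let-7k, and codonopsis minus control was −0.058 for let-7f-5p and −0.033 for let-7g-5p.

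Alternatives chosen after seeing the data were 3 further scalings. The geometric mean turned miR-98-5p in codonopsis minus control (0.048). The scaling set redefined without control 1 gave medians of 0.026 for codonopsis minus model, with let-7a-5p at 0.045, let-7c-5p at 0.039, let-7e-5p at 0.013, let-7f-5p at 0.039 and miR-98-5p at 0.055, and 0.27 for codonopsis minus control, with miR-98-5p at 0.11. Redefined without control 3 it gave −0.0075, with let-7a-5p at 0.012, let-7c-5p at 0.0057, let-7f-5p at 0.0056 and miR-98-5p at 0.021, and 0.28 for codonopsis minus control, with miR-98-5p at 0.12.

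The range of the 9 member differences in model minus control was 0.30. It became 0.46 after quantile normalization, 0.37 with normexp, 0.40 in the deposited table, 0.38 with the brightest probe, 0.39 with sex and 0.42 with array weights. Leaving out 1 array at a time it ran from 0.24 to 0.45, and the family medians from 0.20 to 0.34 (model minus control), −0.23 to −0.17 (codonopsis minus model) and 0.016 to 0.16 (codonopsis minus control). In the same way model minus control ran from −0.074 to 0.20 for miR-98-5p and from −0.43 to 0.19 for let-7k. Codonopsis minus control ran from −0.011 to 0.17 for let-7d-5p, −0.12 to 0.092 for let-7f-5p, −0.10 to 0.067 for let-7g-5p, −0.23 to 0.040 for miR-98-5p and 0.54 to 1.17 for let-7k, with 0 to 1 members passing. The cause of these changes was not tested. No paired analysis was possible because the labels carry no replicate number that pairs mice across groups.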
